A study of Mus musculus with 6 samples.

Results

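AP-1 is a transcription factor made of 2 proteins, one of the Jun family (Jun, Junb, Jund) paired with another Jun protein, with a Fos protein (Fos, Fosb, Fosl1, Fosl2) or with a related ATF protein. Its genes were followed here in the mouse retina 2 days after optic nerve crush (ONC), by taking the rows with these 7 gene symbols out of 35485 genes in each deposited table. RNA came from whole retinas of wild type C57BL/6 male mice, 12 weeks old, and each sample was a pool of 6 retinas from 6 mice. In the 3 ONC samples the nerve had been crushed for 10 seconds at 2 mm behind the eye, and in the 3 sham samples it had been exposed and left intact. Spread is therefore spread between pools, not between single animals, and whole retina holds every retinal cell type together with the injured retinal ganglion cells (RGCs).

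As background, Jun and Fos proteins bind DNA through a basic region and join each other through a leucine zipper, a structure called bZIP. Fos proteins need a partner, while Jun proteins can also pair among themselves. Fos is the classic immediate early gene, switched on within minutes of stimulation through ERK, SRF and CREB and soon off again. Jun is activated by the kinase JNK, and in neurons whose axons are cut its level is known to stay raised for days. Jun protein also binds the promoter of its own gene.

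The stretch of 250 bases before the annotated start of Jun is shown because it carries the 2 sites at which Jun and ATF proteins are known to act on Jun itself, and that of Fos because it is the other classic inducible member. The sequences are RefSeq's for GRCm38.p6, written 5′ to 3′ on the strand of the gene. In Jun the capitals mark TTACCTCA and TGACATCA, and in Fos they mark TGACG, the core of a CREB site. The Jun stretch is chr4:95052223-95052472 on the minus strand and the Fos stretch is chr12:85473640-85473889 on the plus strand.
Jun: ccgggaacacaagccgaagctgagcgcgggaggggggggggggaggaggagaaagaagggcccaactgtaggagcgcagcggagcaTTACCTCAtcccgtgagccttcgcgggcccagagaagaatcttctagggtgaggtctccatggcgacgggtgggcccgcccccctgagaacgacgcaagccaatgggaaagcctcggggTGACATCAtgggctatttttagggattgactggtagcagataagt
Fos: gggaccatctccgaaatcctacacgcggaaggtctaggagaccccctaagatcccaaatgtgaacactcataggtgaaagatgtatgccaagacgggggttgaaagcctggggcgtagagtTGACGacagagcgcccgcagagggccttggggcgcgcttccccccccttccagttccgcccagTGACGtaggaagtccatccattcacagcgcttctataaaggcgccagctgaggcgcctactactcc
TTACCTCA began 164 bases and TGACATCA 45 bases before the start of Jun. With both strands searched, TTACCTCA was present in 0.735% and TGACATCA in 2.84% of 32536 promoter stretches of the same length, and 6 stretches (0.0184%) held both. TGACG began 129 and 66 bases before the RefSeq start of Fos, which lies 11 bases before the start given in the deposited tables, and was present in 17.9% of all stretches. The stretches of Junb and Fosb held TGACG too, beginning 106 and 60 bases before the start. For Fosb this is the start in the deposited tables. The RefSeq gene begins 73 bases further upstream, so this TGACG lies inside it. The consensus AP-1 site TGACTCA, found in 4.45% of all stretches on either strand, was in none of the 6 members' stretches that the table holds, and neither was the full CREB site TGACGTCA, found in 1.56%. These are matches of letters in a short window and were not tested for binding.

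Exon reads per sample ranged from 17343945 to 20358008. Total exon reads of the 13670 genes whose mean RPKM exceeded 0.3 in sham or in ONC were scaled by TMM and compared with the quasi-likelihood test of edgeR. A gene was called when its false discovery rate (FDR, the Benjamini-Hochberg adjusted p) was under 0.1 and its fold change above 1.5. RPKM, exon reads divided by exon length in kilobases and by the library's reads on genes, is used to compare levels between genes. Of the 7 members 6 passed the filter and 1, Jun, was called, higher in ONC, against 0.827% of all tested genes called higher. None was called lower, against 0.834% of all tested genes, and 1.66% were called in either direction. Jun was also the 1 member with an unadjusted p under 0.05, which 16.7% of all tested genes had.

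Sham replicate 1 stood apart from the other sham samples. The summed RPKM of 8 lens genes was 59.5 in it, 6.56 and 11.8 in the other sham pools, and 60.0 to 76.5 in ONC. Sprr1a, an injury-responsive gene, had 24 exon reads in that pool, 0 and 3 in the other sham pools and 223 to 245 in ONC. The tissue label was met, with Nrl, a transcription factor of rods, at an RPKM of 707 to 793 in all 6 samples, and 5 of 10 RGC markers, among them Pou4f2 and Nefh, were called lower in ONC. Of all tested genes 0.834% were called lower. By the FDR threshold alone 8 of the 10 markers were lower. Another marker of the 10 went the other way and passed the FDR threshold, at a log2 fold change of 0.26, below the fold threshold. In bulk tissue fewer cells of a type and less RNA per cell cannot be told apart.

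**Figure D1:**
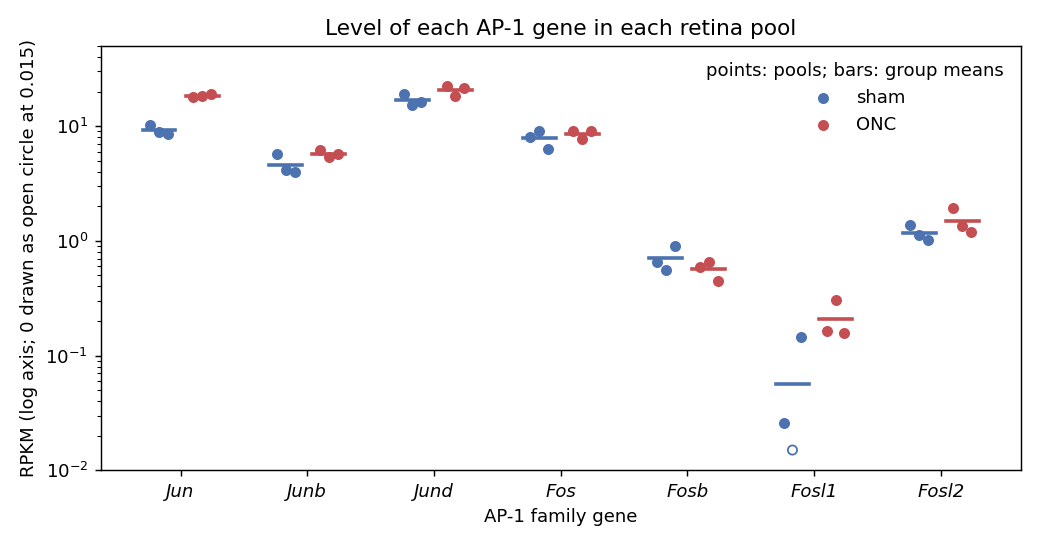
RPKM (log axis) of the 7 AP-1 genes in each retina pool, with points for pools and bars for the means of 3 sham (blue) and 3 ONC (red) pools. The Jun points of the ONC pools lie at 18.0 to 19.0 and those of the sham pools at 8.46 to 10.3, while the points of the other well measured members overlap between the groups.

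Jun, the founding member of the family, lies on chromosome 4 from 95049036 to 95052222 and has a single exon (GRCm38, as for all positions given here). In replicates 1, 2 and 3 it had 751, 680 and 660 exon reads in the sham group and 1453, 1451 and 1572 in the ONC group. In RPKM it was at 10.3, 8.91 and 8.46 in sham and at 18.0, 18.3 and 19.0 in ONC. All 3 ONC pools lay far above all 3 sham pools, and the ONC pools were close to each other. The group levels were 9.21 ± 0.931 (SD, n = 3) in sham and 18.4 ± 0.516 (SD, n = 3) in ONC. Jun rose 1.84-fold, a log2 fold change of 0.88 (SE 0.08, 95% interval 0.72 to 1.05, quasi-likelihood edgeR adjusted p = 8.12e-07). Groups that did not overlap, ONC higher, were found in 11.0% of all tested genes. Ranked by p, Jun was number 16 of the 13670 genes, and by size of the rise it was number 71 of the 113 genes called higher. It was highest of the sham pools in sham replicate 1, and without that sample its log2 fold change was 0.94 (edgeR adjusted p = 3.48e-06).

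Jund, known as the constitutive member that most cells hold at a steady level, lies on chromosome 8 from 70697739 to 70700616 and has a single exon. It was the most abundant member, with an RPKM of 18.9, 15.3 and 16.2 in sham and 22.3, 18.5 and 21.4 in ONC. ONC replicate 2 lay below sham replicate 1, so the groups overlapped. Its log2 fold change was 0.19 ± 0.09 (SE, edgeR adjusted p = 0.32), and the 95% interval of the fold change ran from 0.995 to 1.30, which leaves out a change of 1.5-fold.

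Junb, which is inducible in many cells and can oppose Jun at some targets, lies on chromosome 8 from 84976909 to 84978748. Its RPKM was 5.67, 4.15 and 3.98 in sham and 6.16, 5.37 and 5.72 in ONC. Sham replicate 1 again was the highest sham pool and lay inside the ONC range. The log2 fold change was 0.21 ± 0.15 (SE, edgeR adjusted p = 0.533), with an interval of the fold change from 0.923 to 1.44. Without sham replicate 1 the log2 fold change was 0.35 (adjusted p = 0.313).

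Fos lies on chromosome 12 from 85473901 to 85477269 and has 4 exons. Its RPKM was 8.11, 8.98 and 6.34 in sham and 9.02, 7.74 and 9.08 in ONC. The pools of both groups were interleaved. Its log2 fold change was 0.03 ± 0.13 (SE, edgeR adjusted p = 0.94), and the interval of the fold change, 0.850 to 1.22, leaves out 1.5-fold in either direction. Exon reads numbered 325 to 450 per sham sample and 403 to 493 per ONC sample. Reads on its introns, a trace of unspliced RNA, numbered 0, 0 and 1 in sham and 6, 0 and 7 in ONC, too few to compare.

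Fosb, an activity-dependent member whose truncated form builds up in chronically stimulated neurons, lies on chromosome 7 from 19302696 to 19310045. It was low, with 57, 50 and 83 exon reads in sham and 57, 62 and 44 in ONC. In RPKM that was 0.703 ± 0.177 (SD, n = 3) and 0.568 ± 0.108 (SD, n = 3), with overlapping pools. The log2 fold change was -0.44 ± 0.31 (SE, edgeR adjusted p = 0.507), and an interval of the fold change from 0.471 to 1.15 shows that a sizeable fall could not be told from none at this depth. Leaving out 1 sample moved it between -0.61 (without sham replicate 2) and -0.17 (without sham replicate 3). The tables give 1 value per gene, so the forms of Fosb were not separated.

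Fosl2, also called Fra-2, lies on chromosome 5 from 32136472 to 32157840. Its RPKM was 1.39, 1.12 and 1.02 in sham and 1.93, 1.36 and 1.20 in ONC. ONC replicate 1 alone lay above every sham pool. The log2 fold change was 0.23 ± 0.19 (SE, edgeR adjusted p = 0.576; fold interval 0.894 to 1.54), and without ONC replicate 1 it was -0.02 (adjusted p = 0.966). Fosl1, also called Fra-1, on chromosome 19 from 5447698 to 5455938, was at the limit of detection. Its exon reads numbered 1, 0 and 6 in sham and 7, 13 and 7 in ONC, and its mean RPKM of 0.0567 and 0.209 kept it out of the test. With no filter on RPKM (17655 genes) its log2 fold change was 1.67 ± 1.15 (SE, edgeR adjusted p = 0.539). Of its exon reads 76.5% were uniquely mapped, against all of the exon reads of the other 6 members, and 52.8% of its gene reads lay on introns.

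**Figure D2:**
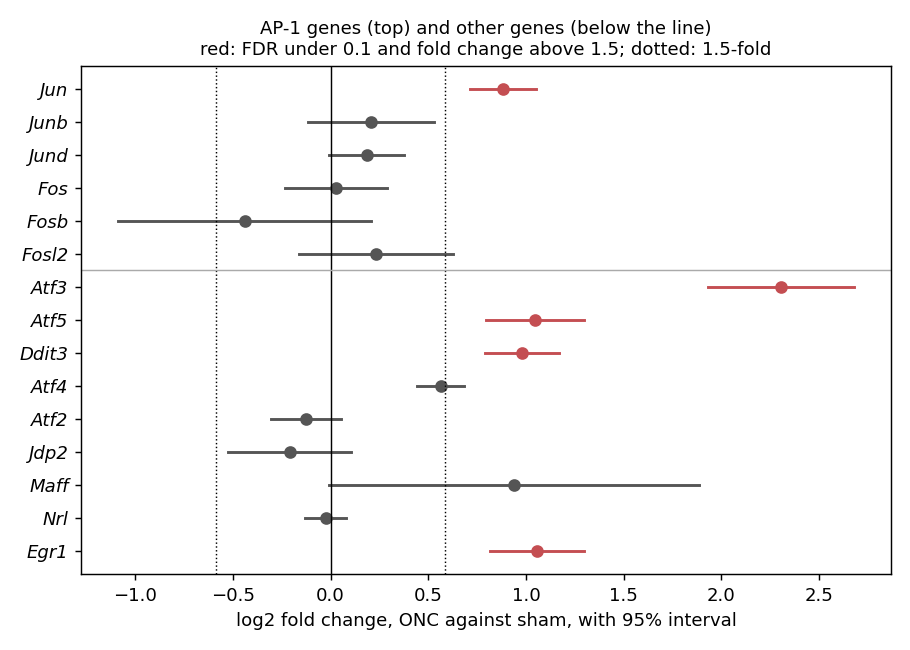
Log2 fold change of ONC against sham with its 95% interval, for the 6 tested AP-1 genes above the line and 9 other genes below it, red where FDR was under 0.1 and the fold change above 1.5 (dotted lines). Jun at 0.88 is the red AP-1 gene, and the intervals of the other 5 members include 0.

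Per length, the order of levels in sham was Jund, Jun, Fos, Junb, Fosl2, Fosb and Fosl1. Jun and Fos were neighbours whose sham pools overlapped (8.46 to 10.3 and 6.34 to 8.98). All Jund pools lay above all Jun pools in sham. In ONC the order of the group means was the same, but the neighbours had changed. Jun, at 18.0 to 19.0, now overlapped with Jund, at 18.5 to 22.3, and lay above Fos, at 7.74 to 9.08, in every pool.

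In replicates 1, 2 and 3 Jun made up 22.8%, 22.8% and 22.9% of the summed RPKM of the 7 genes in sham, against 30.9%, 35.0% and 33.4% in ONC. The 3 sham pools thus held nearly the same Jun share, sham replicate 1 included. The share of Jund was 41.6% ± 2.21 (SD, n = 3) in sham and 37.1% ± 1.52 (SD, n = 3) in ONC, and that of Fos 19.4% ± 3.15 and 15.4% ± 0.561 (SD, n = 3 each). The 3 Jun genes together held 75.8% ± 2.65 in sham and 80.5% ± 0.549 in ONC (SD, n = 3 each). Shares of 1 total are tied to each other, so a larger Jun share lowers the rest, and no test was made on them. The summed RPKM was 40.3 ± 4.14 in sham and 55.8 ± 3.18 in ONC (SD, n = 3 each). Without Jun it was 31.1 ± 3.21 and 37.4 ± 3.19 (SD, n = 3 each), where the pools overlapped. RPKM divides by all reads on genes, of which exon reads were 70.9% to 76.6% in sham and 78.5% to 80.4% in ONC. With that scaling the median log2 fold change of all tested genes was 0.13, and summed RPKM carries this shift.

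**Figure D3:**
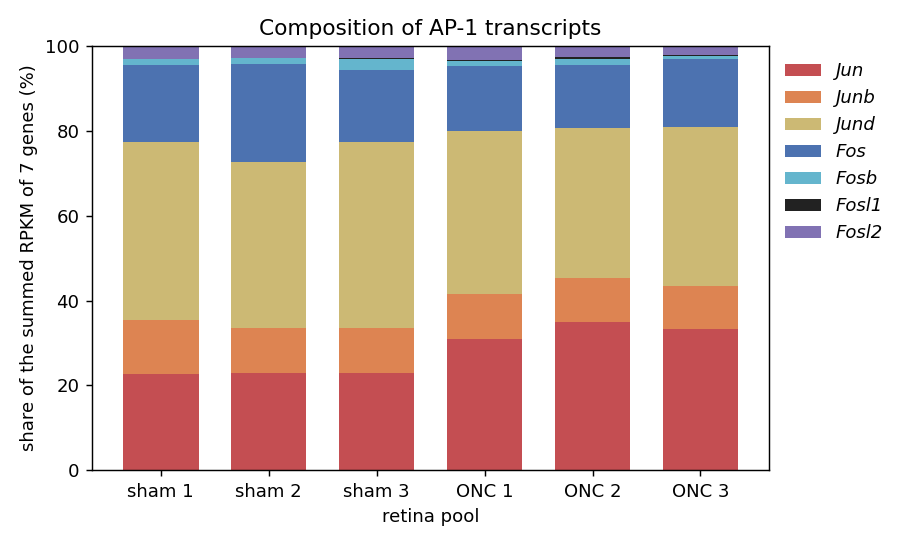
Share of each gene in the summed RPKM of the 7 AP-1 genes, 1 bar per retina pool. The Jun share at the base of the bars is 22.8% to 22.9% in the sham pools and 30.9% to 35.0% in the ONC pools.

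Whether Jun differed from its relatives was tested on ratios within a pool, which do not depend on how a library is scaled. Each is a difference of log2 TMM-scaled counts, not divided by length, 6 of them to Jund and 6 chosen after the values were seen. The log2 ratio of Jun to Jund was -0.73, -0.64 and -0.78 in sham and -0.16, 0.13 and -0.02 in ONC, higher in ONC by 0.70, and no pool of one group reached the other. The ratios of Jun to Junb, Fos, Fosb and Fosl2 were higher in ONC by 0.67, 0.85, 1.29 and 0.68, each with groups that did not overlap. They share the numerator Jun with the ratio to Jund, so they are not separate comparisons. For each of these 5 ratios the exact two-sided permutation p was 0.1, the smallest that 3 pools against 3 allow, and 0.171 after Benjamini-Hochberg adjustment over 12 ratios. The 6 ratios chosen after the values were seen each had an exact p of 0.1. Counting them in lowers the adjusted p of Jun to Jund, so 0.171 adds no support to that ratio. By contrast the ratio of Junb to Jund moved by 0.03 (exact p = 0.9), that of Fosl2 to Jund by 0.02 (exact p = 0.9) and that of Fos to Jund by -0.15 (exact p = 0.7), all with overlapping pools. For Fosb to Jund the difference was -0.59 (exact p = 0.2) and for Fosl1 to Jund, on its few reads, 1.23 (exact p = 0.3).

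**Figure D4:**
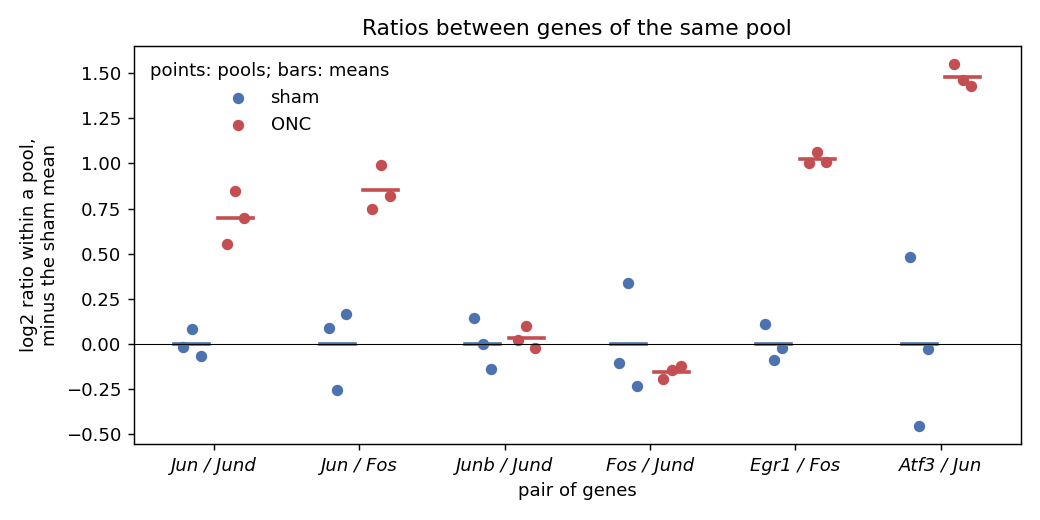
Log2 ratio of 2 genes within each pool, shown relative to the mean of the sham pools, with points for pools and bars for means. The ONC pools lie above the sham pools for Jun to Jund, Jun to Fos, Egr1 to Fos and Atf3 to Jun, and among them for Junb to Jund and Fos to Jund.

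AP-1 proteins also pair with other bZIP proteins, and 27 such genes were examined, 24 of them tested. Their median log2 fold change was 0.03, against 0.01 over all tested genes. Of these partners 3 were called higher and none lower, against 0.827% and 0.834% of all tested genes. Atf3, a stress-induced partner of Jun, had an RPKM of 4.93, 2.22 and 2.85 in sham and 18.3, 17.4 and 17.7 in ONC, a log2 fold change of 2.30 ± 0.18 (SE, edgeR adjusted p = 7.95e-08). Relative to Jun of the same pool, Atf3 RPKM was 0.249 to 0.481 of Jun RPKM in sham and 0.932 to 1.01 in ONC. Without sham replicate 1 the log2 fold change of Atf3 was 2.66. The log2 ratio of Atf3 to Jun was higher by 1.48 in ONC (exact permutation p = 0.1) and by 1.72 without that sample. By RPKM the 2 genes stood near 1 to 1 after crush. The other called partners were Atf5 and Ddit3, stress factors of the ATF4 pathway, at log2 fold changes of 1.04 and 0.98. Atf4 itself passed the FDR threshold (adjusted p = 2.73e-06) at a fold change of 1.48, below 1.5, and was the 4th called partner in 7 of 19 alternative fits, among them those without sham replicate 1, with the scaling of RPKM and with total gene reads, the last of which also called Atf7 lower.

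Other partners, named after their values were seen, showed no called difference. Atf2, a JNK-activated partner of Jun, had a log2 fold change of -0.13 (edgeR adjusted p = 0.491), and Jdp2, a repressor that pairs with Jun, of -0.21 (adjusted p = 0.517). The small Maf protein Maff had a value of 0.94 (adjusted p = 0.305). Nrl, the Maf relative that specifies rods and the most abundant gene of the list, was at an RPKM of 720 ± 11.8 (SD, n = 3) in sham and 771 ± 19.4 (SD, n = 3) in ONC, a log2 fold change of -0.02 after TMM normalization. Batf, Batf2 and Batf3 were below the RPKM filter.

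The kinases that lead to Jun were read next. None of 16 genes of the JNK cascade was called, and their median log2 fold change was -0.06. Of all tested genes 1.66% were called, a share at which a list this short can hold none. On TMM-scaled counts 6 of the 16 had all ONC pools below all sham pools, against 10.8% of all tested genes. None of the 16 had all ONC pools above. Map3k12, the axon injury kinase DLK, had a log2 fold change of 0.12 (edgeR adjusted p = 0.451). Mapk8 and Mapk9, which encode JNK1 and JNK2, were at -0.03 and -0.02. Mapk10, the neuronal kinase JNK3, and Map3k13, the DLK relative LZK, passed the FDR threshold with small decreases below the fold threshold, at -0.35 (adjusted p = 0.00199) and -0.26 (adjusted p = 0.0829). Mapk8ip3, a scaffold and the most abundant gene of the list, was at -0.08. These are transcript levels, and the activity of the kinases was not measured.

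Among 18 genes of the ERK, SRF and CREB inputs to Fos none was called, against 1.66% of all tested genes. On TMM-scaled counts 4 of the 18 had all ONC pools below all sham pools, against 10.8% of all tested genes, and none had all above. Mapk3, which encodes ERK1 and had the highest mean RPKM over all 6 pools, had a log2 fold change of 0.06 (edgeR adjusted p = 0.69). Elk4, a partner of SRF at the Fos promoter, had a log2 fold change of -0.58 (adjusted p = 0.028), just under the fold threshold, and was called without sham replicate 1, sham replicate 3, ONC replicate 1 or ONC replicate 3. None of 6 tested genes for turnover or inhibition of Jun and Fos proteins was called, and Cops5, a Jun-binding protein and the most abundant of them, was at 0.03 (adjusted p = 0.908).

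Egr1, a zinc finger factor that shares its SRF input with Fos, was the called gene among 20 tested other immediate early genes. The median log2 fold change of these genes was 0.15, and 1.66% of all tested genes were called. The RPKM values of Egr1 are given next. Its RPKM was 5.20, 5.0 and 3.70 in sham and 10.8, 9.61 and 10.9 in ONC, a log2 fold change of 1.05 ± 0.11 (SE, edgeR adjusted p = 7.34e-06). Fos RPKM was 1.56 to 1.80 times Egr1 RPKM in the sham pools and 0.805 to 0.839 times in the ONC pools, so the order of these 2 genes turned. The log2 ratio of Egr1 to Fos was higher by 1.03 in ONC (exact permutation p = 0.1, adjusted 0.171 over the 12 ratios). Dusp1 and Btg2, other early response genes, passed the FDR threshold at fold changes of 1.49 and 1.24, below 1.5. Dusp1 exceeded it without sham replicate 3, ONC replicate 1 or ONC replicate 2, which made 2 genes called. Nr4a1, which like Fos answers neuronal activity, was at a log2 fold change of 0.01 (adjusted p = 0.975).

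Of 30 genes named as targets of AP-1 or Jun in other tissues and injuries, 22 were tested, at a median log2 fold change of 0.50. Of these 9 were called higher and 1 lower, against 0.827% and 0.834% of all tested genes. The list was made with the genes changed in these samples known, so its count is no independent sign of AP-1 activity. The called genes of largest change were Sprr1a (4.47), a growth cone protein, Mmp12 (4.06), a macrophage protease, Gal (2.91), the neuropeptide galanin, Hrk (2.75), a cell death gene of the BCL2 family, Atf3, counted among the partners too, and Lgals3 (1.96), a galectin. Hrk had 49, 20 and 16 exon reads in sham and 235, 208 and 223 in ONC, a log2 fold change with a standard error of 0.29 (edgeR adjusted p = 5.41e-06). The gene called lower was Mmp9, a matrix protease, at -0.72 (adjusted p = 0.000918), a call that was lost with limma on log2(RPKM + 0.1) and log2(RPKM + 1). Without sham replicate 1 the list had 8 genes called higher and 1 lower, and the log2 fold changes of Sprr1a, Mmp12 and Hrk were 6.97, 6.05 and 3.40. That of Sprr1a then rested on 0 and 3 sham reads, and without sham replicate 2 it was 3.87.

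**Figure D5:**
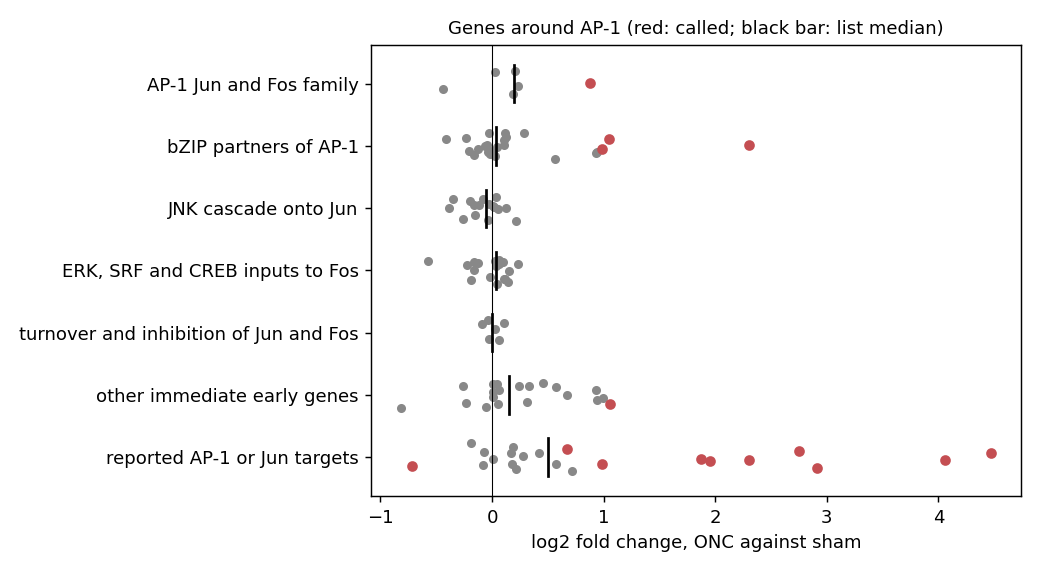
Log2 fold change of every tested gene in the AP-1 family and 6 lists around it, with called genes in red and the median of each list as a black bar. Called genes are found in the family, among the partners (3), the other immediate early genes (1) and the reported targets (10). None is found among the 16, 18 and 6 tested genes of the upstream and turnover lists, against 1.66% of all tested genes.

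The genes whose log2 TMM-scaled counts followed Jun most closely over the 6 pools were Arid5a, Arhgap21, Plat, Stmn4 and Camk1, with Pearson's r from 0.996 to 0.999. Arhgap21 was not called, at a log2 fold change of 0.13 (edgeR adjusted p = 0.288), and the others were called higher. Atf3 was number 13 (r = 0.989) and Egr1 number 47 (r = 0.976), whereas Junb (r = 0.662) and Jund (r = 0.646) were numbers 2086 and 2203 and Fos had r = 0.122. The genes closest to Fos were Zfyve20, Tnfsf13b, Inpp4b, Narfl and Lrrn4cl (r from 0.975 to 0.996), none of them called. These are descriptions over 6 pools in 2 groups and carry no test.

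Levels of other cell types moved with the groups too. The summed RPKM of 11 microglia and macrophage genes was 18.9 to 21.6 in sham and 32.7 to 35.6 in ONC, with 4 of 10 tested genes called higher and none of the 11 at 0. That count was 1 without sham replicate 2, ONC replicate 2 or ONC replicate 3, and 2 without sham replicate 3. It was 2 with the replicate number as a block and 6 with the scaling of RPKM. The 10 RGC markers summed to 435 to 453 in sham and 321 to 339 in ONC, with 5 called lower and none called higher. By the FDR threshold alone 8 were lower and 1 was higher, against 508 and 325 of all 13670 tested genes. Sums of RPKM carry the shift given above for all tested genes. None of 7 tested Muller glia and astrocyte genes, of 7 vascular genes or of 7 pigment epithelium genes was called. Of all tested genes 0.827% were called higher and 0.834% lower, shares at which lists this short can hold none. Which cells the added Jun transcripts came from cannot be read from whole retina, and the part of microglia and macrophages in the Jun difference was not tested. Of 6 tested lens genes 1 was called higher, 5 without sham replicate 1, 3 without ONC replicate 1 and none without sham replicate 2, sham replicate 3 or ONC replicate 3. Sham replicate 1 held an ONC-like summed level of lens genes. Its Jun RPKM of 10.3 was the highest of the sham pools, the others being at 8.91 and 8.46. The part of lens tissue in the Jun difference was not tested. Of 5 tested blood genes 1 was called lower, and none without sham replicate 1.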

How the data were processed

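Paired 100 bp reads from 6 libraries on one lane of the Illumina HiSeq2000 were mapped by the authors with CLC Genomics Workbench 6.0.1, allowing at most 2 mismatches. The authors deposited read counts per gene (exon, unique exon, and gene with introns), in which an intact pair counts as 1, and RPKM, which divides exon reads by exon kilobases and by all reads on genes. The paper names mm9, but positions in the files equal those of RefSeq on GRCm38 for 5 of the 7 members and differ by at most 73 bases for Fos and Fosb. Positions are given as in the files.

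Total exon reads of genes whose mean RPKM exceeded 0.3 in sham or in ONC, the filter of the study, were tested with edgeR 4.0.16 (TMM, glmQLFit, glmQLFTest) in R 4.3.3, with Benjamini-Hochberg adjustment over all 13670 genes. The thresholds FDR under 0.1 and fold change above 1.5 follow the study. Standard errors were the log2 fold change divided by the square root of F, and 95% intervals used the t quantile of the test's degrees of freedom. Log2 TMM-scaled counts used a prior count of 2. Figures and ratios used Python 3.11.15, pandas 2.3.3, numpy 2.4.6 and matplotlib 3.10.9. The fitting was tested on simulated data. DESeq2 1.42.0, limma 3.58.1 on log2(RPKM + 0.1, 1 or 0.01), other scalings, filters and counts, the replicate number as a block, and fits without each sample were the alternatives. Members, lists and the naming rule (all members, called list genes or else the most abundant, and the 5 genes most like Jun and Fos) were chosen with earlier results of these data known. Replicates are separate pools. Promoter stretches came from RefSeq, GRCm38.p6, for 6 of the 7 members. The mean column of the ONC group and the genome in an older build were not used here. Some genes of the lists are not reported here by name.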

Additional observations from a re-analysis of the deposited data

How the results depend on the processing

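Jun was called higher, and no other member was called in either direction, under all alternatives tried, at a log2 fold change of 0.84 to 1.01 for Jun (adjusted p at most 0.000154). Fos, uncalled throughout, ranged up to 0.15 with limma and a pseudocount of 0.01, and from -0.065 to 0.12 over the fits that left out 1 sample. It was below 0 without sham replicate 3 (-0.065), ONC replicate 1 (-0.026) or ONC replicate 3 (-0.017). Fosl2 ranged from -0.019 without ONC replicate 1 to 0.37 without ONC replicate 3. Among other immediate early genes 1 to 3 were called, with Arc and Dusp1 added to Egr1 under the scaling of RPKM. Fosb was not tested with a mean RPKM above 1. Dividing by all reads on genes, as RPKM does, shifted the median log2 fold change of all genes to 0.13, and Jund then passed the FDR threshold (adjusted p = 0.0484) at a log2 fold change of 0.31.

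The number of all tested genes called was 113 higher and 114 lower. It was 263 higher and 87 lower with the scaling of RPKM, 217 and 65 with limma on log2(RPKM + 0.1), 213 and 64 with a pseudocount of 0.01, 126 and 39 with a pseudocount of 1, 113 and 236 with total gene reads, and 325 and 508 with no fold change threshold. Without 1 sample it ranged from 71 (sham replicate 2) to 180 (ONC replicate 1) higher and from 78 (ONC replicate 2) to 178 (ONC replicate 1) lower. With the replicate number as a block, 111 and 111 were called, and Jun was at 0.88. Same-numbered samples share only a number, with correlations of their deviations from the group mean between -0.0474 and 0.00261, and the block changed no call of a member, while called microglia genes numbered 2 with it against 4.

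Ratios without 1 sample ranged from 0.62 to 0.77 for Jun to Jund, -0.039 to 0.10 for Junb to Jund, -0.27 to 0.017 for Fos to Jund, -0.12 to 0.19 for Fosl2 to Jund, -0.78 to -0.38 for Fosb to Jund and 0.86 to 1.82 for Fosl1 to Jund, which was 0.75 with RPKM and a pseudocount of 0.1. The cause of these changes was not tested. With 3 pools a group and under 20 exon reads per sample, Fosl1 was known within wide limits only.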
